A study of Mus musculus with 4 samples.

Results

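The heat shock proteins and the DNAJ proteins are the main chaperones outside the secretory pathway, and their genes were followed in 2 subpopulations of the common lymphoid progenitor (CLP), a bone marrow cell that can give rise to B, T and natural killer cells. Members were taken by gene symbol, as genes named Hspa, Hspb, Hspd, Hspe, Hsph, Hsp90 or Dnaj with a number, without the endoplasmic reticulum genes Hspa5 and Hsp90b1. They came to 70 of the 18193 genes compared, with 1 probe set per gene, the one with the highest mean over the 4 arrays. CLP_RAGhigh and CLP_RAGlow cells came from the marrow of C57Bl6 mice aged 8 to 12 weeks, with 2 arrays per group and RNA of 2000 sorted cells per array, and the sample descriptions set the groups apart as GFP high and GFP low. The labels do not describe the GFP reporter or its allele and name no treatment. They call the replicates biological without saying whether these were separate animals or sorts, so a p-value measures only the spread between these samples. The question of the comparison was how the 2 sorted subpopulations differ in expression.

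Heat shock proteins hold unfolded or newly made proteins until they reach their native form. HSP70 proteins bind and release their clients in a cycle driven by ATP, in which DNAJ proteins deliver the client and trigger hydrolysis and exchange factors such as HSP110 proteins restart the cycle. Some members, such as Hspa8, are made in nearly every cell, while Hspa1a and Hspa1b are known to be switched on within minutes by heat, unfolded protein or handling of cells, through heat shock factors that bind inverted repeats of GAA in the promoter.

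The genes Hspa1b, Hspa1a, Hsph1 and Hspe1 are shown by their sequence since the first 3 were highest on 1 array, CLP_RAGhigh replicate 1, and the fourth holds a longer run of the repeat. The first 3 lines are the 250 bases before the gene start and the last is a stretch of 30 bases, all from RefSeq on build GRCm38.p6, read 5′ to 3′ along the gene. Capitals mark GAANNTTC or TTCNNGAA, the pair of inverted repeats that a heat shock factor is known to bind. Hspa1b lies at chr17:34959239-34959488, Hspa1a at chr17:34972157-34972406 and Hsph1 at chr5:149636337-149636586, all on the minus strand, and the Hspe1 stretch at chr1:55088053-55088082 on the plus strand.
Hspa1b: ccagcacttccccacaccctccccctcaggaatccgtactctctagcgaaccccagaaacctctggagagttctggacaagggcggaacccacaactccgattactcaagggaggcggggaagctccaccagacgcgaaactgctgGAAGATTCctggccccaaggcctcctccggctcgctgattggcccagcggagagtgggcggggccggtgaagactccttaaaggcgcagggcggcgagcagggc
Hspa1a: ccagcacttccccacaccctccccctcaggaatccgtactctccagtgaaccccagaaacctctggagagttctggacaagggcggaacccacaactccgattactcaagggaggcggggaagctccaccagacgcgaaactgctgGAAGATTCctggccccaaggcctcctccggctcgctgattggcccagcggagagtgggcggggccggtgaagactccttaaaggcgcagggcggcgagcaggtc
Hsph1: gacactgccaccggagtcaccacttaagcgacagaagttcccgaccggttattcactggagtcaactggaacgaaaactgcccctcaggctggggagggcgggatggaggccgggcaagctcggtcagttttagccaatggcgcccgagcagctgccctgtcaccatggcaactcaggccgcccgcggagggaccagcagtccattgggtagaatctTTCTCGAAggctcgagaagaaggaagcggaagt
Hspe1: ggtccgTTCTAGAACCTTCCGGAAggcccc
The windows of Hspa1b and Hspa1a differed at 3 of 250 bases, and both held GAANNTTC starting 104 bases before the gene start. The gene starts of the pair were 12918 bases apart, and in RefSeq's gene order Hspa1a stands between Hspa1b and Hspa1l. Hsph1 held TTCNNGAA 33 bases before its start. In Hspe1 the 2 forms overlapped into a run of 3 sites that began 89, 84 and 79 bases before the start. Searched on both strands, where each of these forms reads the same, 14 of the 57 members with a promoter in the RefSeq table (24.6%) held at least 1 of the 2 forms, against 13% of the 14452 tested genes in that table. The form of 3 units, in which GAANNTTC and TTCNNGAA overlap by their shared letters in either order, was found in 3 members (Dnajb6, Hspd1 and Hspe1), or 5.26%, against 0.484% of tested genes. These shares count each gene, although the windows of Hspa1b and Hspa1a are nearly the same. Hspd1 and Hspe1 have first listed starts 95 bases apart, and whether the same run was counted for both was not tested. The counted windows are therefore not independent. A match of letters is a description of the window and not evidence of binding.

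The cells were first checked against markers. Values are log2 intensities, the logarithm of the brightness of a probe set after the RMA procedure, or where stated linear intensities, and genes under 3.88, the median log2 intensity of all probe sets, are called dim here. All 7 measured CLP markers, among them Il7r, Flt3 and Dntt, were above the median of all probe sets on every array. Of markers of other cells, 2 of 6 for mature B cells, 3 of 6 for T cells, 1 of 4 for natural killer cells, 2 of 5 for erythroid cells, 3 of 8 for granulocytes, 2 of 5 for macrophages and 1 of 6 for stroma were above it on every array. The summed linear intensity of granulocyte markers was between 3858 and 3980 in CLP_RAGhigh and between 2278 and 5137 in CLP_RAGlow, with S100a8 at a log2 intensity of 3.81 on CLP_RAGlow replicate 2 and at least 9.60 elsewhere. The macrophage sum was 352 and 456 in CLP_RAGhigh and 976 and 939 in CLP_RAGlow, led by Csf1r with a log2 difference of -1.90 ± 0.52 (SE). Of the 5 macrophage markers, only Csf1r and Lyz2 had a lower mean in CLP_RAGhigh. The other 3 had a slightly higher mean there and were dim on every array. The sums of mature B cell, natural killer and erythroid markers were higher on both CLP_RAGhigh arrays than on both CLP_RAGlow arrays. In bulk RNA, fewer cells of a type and less RNA per cell cannot be told apart.

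Hspa1b and Hspa1a, the heat-inducible HSP70 genes, stood apart from all other members through 1 array. Hspa1b had log2 intensities of 10.70 and 1.99 on CLP_RAGhigh replicates 1 and 2, and of 2.44 and 4.17 on CLP_RAGlow replicates 1 and 2. Hspa1b was thus bright on CLP_RAGhigh replicate 1 only, dim on CLP_RAGhigh replicate 2 and CLP_RAGlow replicate 1, and just above the median of all probe sets on CLP_RAGlow replicate 2, and the groups overlapped. The gap to the next highest array was 6.53 log2 units. Over all 18193 genes this gap was the largest for Hspa1b, and 3 genes (0.0165%) lay at least 4 log2 units above every other array on CLP_RAGhigh replicate 1, of which 2 were members, Hspa1b and Hspa1a. The third was Fos. The limma difference for Hspa1b, CLP_RAGhigh minus CLP_RAGlow, was 3.04 ± 2.64 (SE, n = 2 per group; adjusted p = 1), and without CLP_RAGhigh replicate 1 it was -1.32.

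All 3 probe sets of Hspa1b gave the same picture. The other 2 had log2 intensities of 9.84 and 9.44 on CLP_RAGhigh replicate 1 and at most 3.09 elsewhere. Hspa1a had values of 6.67 and 2.15 in CLP_RAGhigh and of 2.00 and 1.95 in CLP_RAGlow. The groups therefore did not overlap, but CLP_RAGhigh replicate 2 was dim like the CLP_RAGlow arrays. Its difference was 2.44 ± 1.35 (SE; limma adjusted p = 0.979), and it was 0.17 without CLP_RAGhigh replicate 1. Hspa1a and Hspa1b encode nearly the same protein, and how far their probe sets can tell the transcripts apart was not tested. Their neighbour Hspa1l, a testis-type HSP70 gene, was dim on all 4 arrays, between 2.20 and 2.58.

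**Figure D1:**
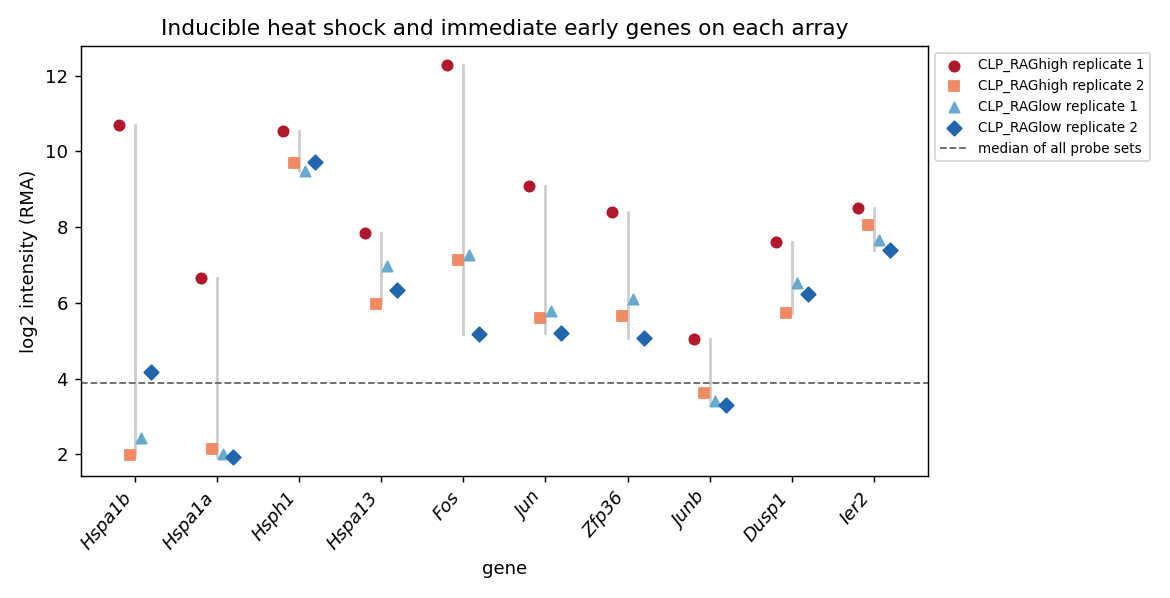
Log2 intensity (vertical axis) of 4 heat shock genes and 6 immediate early genes (horizontal axis) on each of the 4 arrays, 1 point per array, with a grey line from the lowest to the highest and a dashed line at the median of all probe sets. CLP_RAGhigh replicate 1 is the highest point of every gene shown, with Hspa1b at 10.70 there and at most 4.17 on the other arrays. Hspa13 and the immediate early genes were chosen for display after their values were seen. Ier3 and Nr4a1, which were not highest there, are not shown.

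Several immediate early genes, a class transcribed within minutes of a stimulus or of cell handling, were high together with the inducible HSP70 genes on that array. Of 14 such genes listed, 14 were measured, and 12 had their highest value on CLP_RAGhigh replicate 1, against 21.2% of all genes. For Jund, Atf3, Egr1 and Klf6 the lead over the next array was only 0.06 to 0.20 log2 units, and Atf3 was dim throughout. The summed linear intensity of the list was 7365 on CLP_RAGhigh replicate 1, where Fos was the brightest of it, and between 1057 and 1363 on the other arrays. Fos, a subunit of the transcription factor AP-1, had a log2 intensity of 12.27 on that array and of 7.13, 7.28 and 5.17 on CLP_RAGhigh replicate 2 and CLP_RAGlow replicates 1 and 2. Jun, its partner in AP-1, had 9.08 against 5.20 to 5.79, and Zfp36, which marks messenger RNA for decay, had 8.39 against 5.08 to 6.11. Not all of the list followed: Ier3 and Nr4a1 were lower on that array than on at least 1 other. Of 5 measured erythroid markers 3 were also highest there. Epor and Ermap were instead lowest there, at log2 intensities of 4.62 against at least 4.63 and of 3.19 against at least 3.48. The summed linear intensity of the erythroid markers was 359 there against 84.6 to 157 elsewhere. This sum was led by Car1, at a log2 intensity of 7.15 against 3.67 to 4.30. The ratio of 3′ to 5′ signal of the actin control, a measure of how far the labelled copies extend, was 16.2 on that array and between 9.62 and 24.5 on the others. The part of cell handling or of other cells in the Hspa1b and Hspa1a values was not tested.

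Besides Hspa1b and Hspa1a, no member lay at least 2 log2 units above every other array on CLP_RAGhigh replicate 1. Of the 70 members, 22 (31.4%) were highest on CLP_RAGhigh replicate 1, against 21.2% of all genes. Hsph1, an HSP110 protein that recharges HSP70, came next among the core genes. Its log2 intensities were 10.53 and 9.71 in CLP_RAGhigh and 9.48 and 9.71 in CLP_RAGlow, so that CLP_RAGhigh replicate 2 lay within the CLP_RAGlow values. Its difference was 0.53 ± 0.32 (SE; limma adjusted p = 0.979) and 0.12 without CLP_RAGhigh replicate 1. A second, less bright probe set of Hsph1 gave -0.14. It was also highest on CLP_RAGhigh replicate 1, with 7.21 and 4.21 against 6.20 and 5.50. Hspa13, a divergent HSP70 of the endoplasmic reticulum, had 7.86 and 5.96 against 6.99 and 6.33. Another, less bright probe set of Hspa13 was lowest on CLP_RAGhigh replicate 1, with 3.76 and 4.72 against 7.08 and 4.64. Dnajb1, the DNAJ partner of inducible HSP70, which is itself known to respond to heat, did not stand out, with 11.53 and 11.34 in CLP_RAGhigh and 11.48 and 11.26 in CLP_RAGlow. Hspb1, the small heat shock protein best known for its response to stress, had 4.73 and 4.80 against 4.68 and 4.64. Bag3, a partner of HSP70 induced by proteotoxic stress, was dim on all arrays, between 2.87 and 3.53. Of 54 partner genes outside the symbol rule, 14 (25.9%) were highest on CLP_RAGhigh replicate 1, against 21.2% of all genes. Among these, Stip1 had 7.99 there against at most 7.25 elsewhere, and Chordc1 had 10.59 against at most 9.95.

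Across the family, no chaperone gene passed the test between the groups, and the counts lay near those of all genes. With limma, 0 of the 70 members were higher and 0 lower in CLP_RAGhigh at a Benjamini-Hochberg adjusted p under 0.05 over all genes, where 0% of all genes passed in either direction. At an unadjusted limma p under 0.05, 1 member was higher and 2 were lower, or 1.43% and 2.86%, against 2.35% and 2.94% of all genes. Without overlap of the groups, CLP_RAGhigh was higher for 8 members (11.4%) and lower for 10 (14.3%), against 15.4% and 15.8% of all genes. The mean was higher in CLP_RAGhigh for 36 members (50.6% of all genes) and lower for 34. The median log2 difference was 0.015 over the members and 0.0028 over all genes. A difference under 0.5 log2 units was found for 60 members, or 85.7%, against 80.5% of all genes, and 4 members differed by over 1 log2 unit (5.71%, against 5.61%). Those 4 were Hspa1b, Hspa1a, Dnaja4 and Hspb11.

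**Figure D2:**
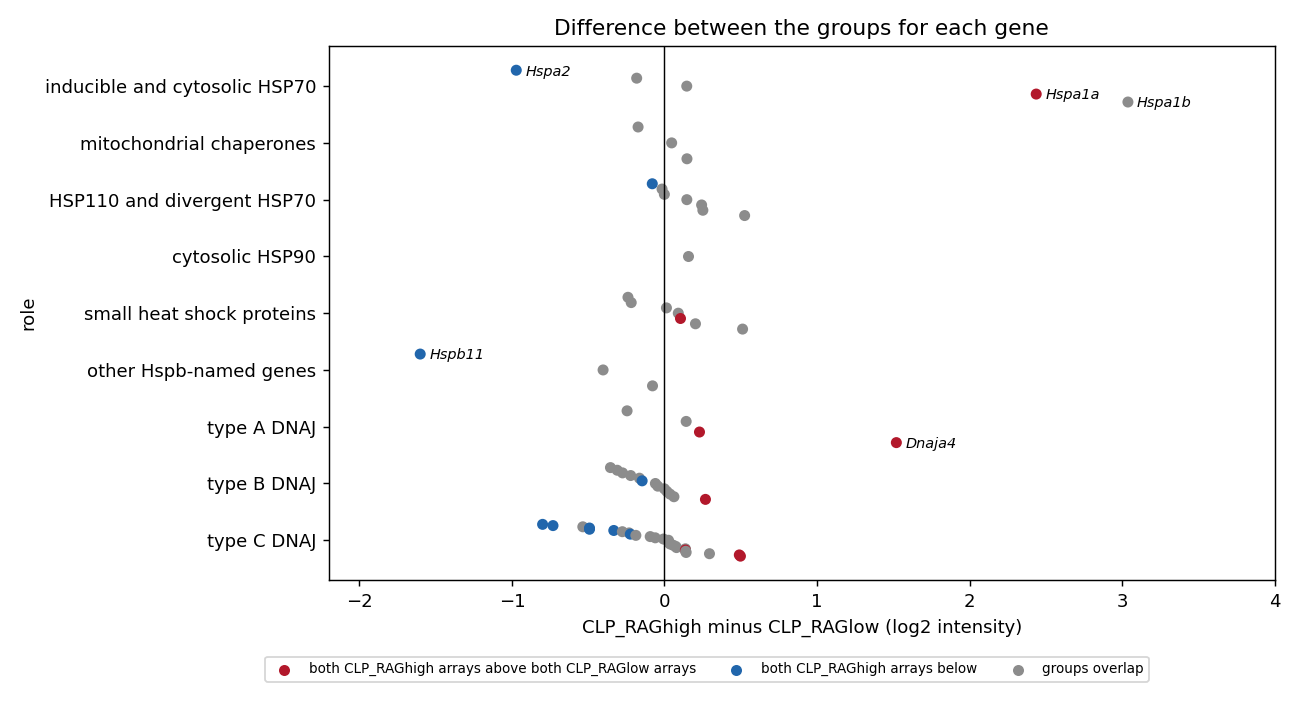
Difference CLP_RAGhigh minus CLP_RAGlow in log2 intensity (horizontal axis) for the 70 genes, 1 point per gene, grouped by role (vertical axis) and coloured by whether the 2 arrays of each group overlap. Most points lie within 0.5 log2 units of 0, and Hspa1b at 3.04, Hspa1a at 2.44, Dnaja4 at 1.52 and Hspb11 at -1.60 lie outside 1.

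Hspa8, the constitutive HSP70, had log2 intensities of 13.10 and 12.90 in CLP_RAGhigh and of 12.77 and 12.93 in CLP_RAGlow, and differed by 0.15 ± 0.10 (SE; limma adjusted p = 0.983). Without CLP_RAGhigh replicate 1 the difference was 0.050, and without CLP_RAGlow replicate 1 it was 0.067. The 4 probe sets of Hspa8 differed by 0.15 to 0.84, all higher in CLP_RAGhigh, and 1 of them varied widely, with 8.23 and 3.55 in CLP_RAGhigh and 5.96 and 4.13 in CLP_RAGlow. The kept probe set of Hspa8 had the smallest of these differences and may cross-hybridise, by the suffix of its name. A bright one without such a suffix had 10.92 and 10.72 against 10.28 and 10.42, a difference of 0.47 without overlap. Hsp90aa1, an HSP90 that matures kinases and steroid receptors, had 12.05 and 11.72 against 11.70 and 11.75, a difference of 0.16 ± 0.14 that was -0.0052 without CLP_RAGhigh replicate 1. Its paralogue Hsp90ab1 was not analysed here. Hspa4, an HSP110 exchange factor, had 9.36 and 9.46 against 9.48 and 9.50, so that the groups did not overlap although they differed by only -0.08 ± 0.23. Hspa4l, its relative, had 5.58 and 5.57 in CLP_RAGhigh and 6.17 and 4.49 in CLP_RAGlow, which lay on both sides of them.

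For the 3 mitochondrial chaperones the groups overlapped. Hspd1, which forms the chaperonin barrel, had 10.61 and 10.87 in CLP_RAGhigh and 10.77 and 10.41 in CLP_RAGlow. Hspe1, the lid of that barrel, had 9.11 and 8.91 against 9.33 and 9.04. Hspd1 and Hspe1 are neighbours in RefSeq's gene order and run in opposite directions, with first listed starts 95 bases apart. The window of the first listed Hspd1 start held neither form, and the form of 3 units was in the window of the other of its 2 listed starts. Their differences were 0.15 ± 0.21 and -0.17 ± 0.27, neither beyond its error. Hspa9, the mitochondrial HSP70 that pulls proteins through the inner membrane, had 10.55 and 10.28 against 10.38 and 10.35.

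**Figure D3:**
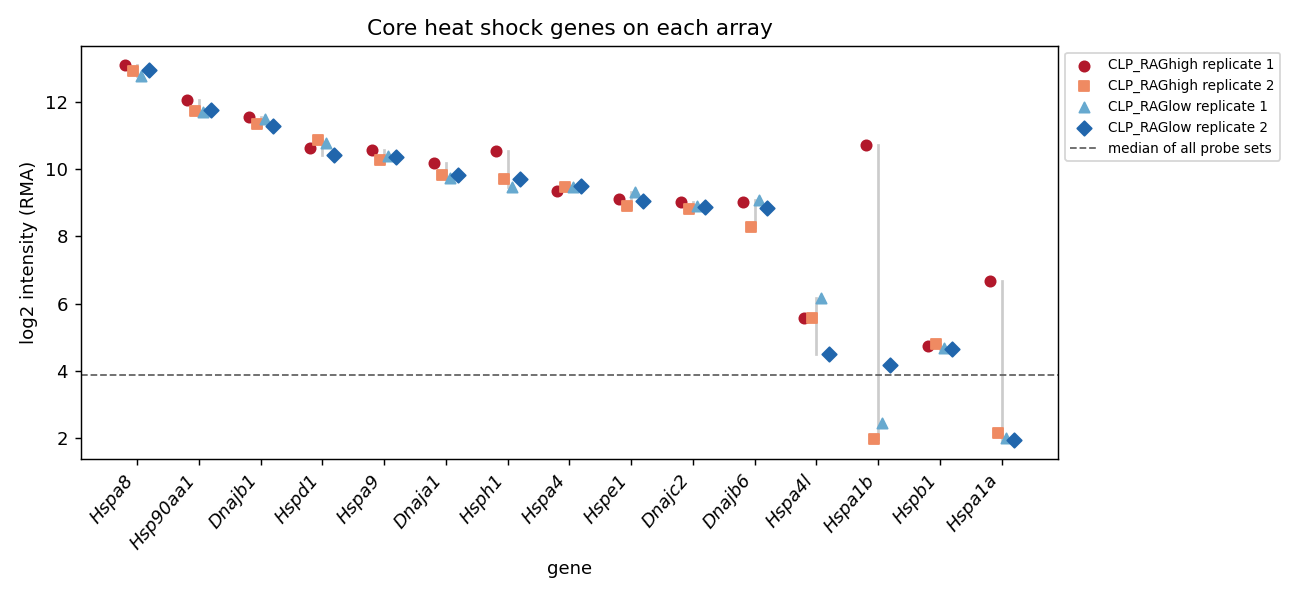
Log2 intensity (vertical axis) of the 15 measured core genes (horizontal axis, ordered by mean, which is no ranking of transcript levels since probe sets differ) on each of the 4 arrays, with a grey line from the lowest to the highest point and a dashed line at the median of all probe sets. Points of a gene lie close together for Hspa8, Hspa4 or Dnajb1 and far apart for Hspa1b and Hspa1a, whose single high point is CLP_RAGhigh replicate 1.

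Of the 7 members among small heat shock proteins, which bind unfolding proteins without ATP, 4 were dim in both groups, and their differences ran from -0.24 to 0.51. Hspb1 was 1 of the 8 members with both CLP_RAGhigh arrays above, at a difference of 0.11 ± 0.29 (SE). In all, 12 members were dim in both groups, among them Dnajb3, Dnajb7 and Dnajb13. RMA values alone do not tell whether such genes were expressed.

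Toward CLP_RAGlow, the largest difference belonged to Hspb11. Despite its name, Hspb11 encodes IFT25, a subunit of the intraflagellar transport complex of cilia. It had log2 intensities of 6.55 and 5.67 in CLP_RAGhigh and of 7.60 and 7.81 in CLP_RAGlow, with no overlap. The difference was -1.60 ± 0.43 (SE, n = 2 per group), with an unadjusted limma p of 0.011 and an adjusted p of 0.759. Leaving out 1 array at a time gave -2.04 to -1.16. A second, dim probe set of the gene gave 0.03, and averaging both gave -0.79. Hspa2, an HSP70 gene best known from spermatogenesis, had 4.80 and 3.99 in CLP_RAGhigh and 5.32 and 5.41 in CLP_RAGlow, a difference of -0.97 ± 0.38 (limma adjusted p = 0.928), which was -0.45 after adding an offset of 32 to the linear values and -0.57 without CLP_RAGhigh replicate 2.

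Type C DNAJ proteins, which share the J domain that stimulates HSP70 and otherwise differ in structure and place, were measured for 27 genes. Of these, 6 (22.2%) had both CLP_RAGhigh arrays below and 3 (11.1%) above, against 15.8% and 15.4% of all genes. The median difference of the type C genes was 0.026, and its sign was not stable. It was -0.10 with probe sets averaged and ran from -0.12 to 0.042 when 1 array was left out. Dnajc9, a chaperone of histones H3 and H4, had 8.11 and 8.50 in CLP_RAGhigh and 9.13 and 8.94 in CLP_RAGlow, a difference of -0.73 ± 0.30 (limma adjusted p = 0.929). Leaving out 1 array at a time kept it between -0.92 and -0.54. Dnajc15, of the mitochondrial import motor, had 6.77 and 6.90 against 8.00 and 7.28, a difference of -0.80 that was -0.44 without CLP_RAGlow replicate 1. Dnajc10, a disulfide reductase of the endoplasmic reticulum, had 8.39 and 8.52 against 8.76 and 9.13. For Dnajc10 all 3 probe sets were lower in CLP_RAGhigh, from -0.59 to -0.49, and the value was -0.31 without CLP_RAGlow replicate 2. Dnajc8, which is associated with the spliceosome, had 10.99 and 11.28 against 11.47 and 11.46, a difference of -0.33 ± 0.15 that was -0.19 without CLP_RAGhigh replicate 1. None of these 4 genes passed the threshold.

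Toward CLP_RAGhigh, Dnaja4, a type A DNAJ with the full domain order of the bacterial DnaJ, differed most apart from the inducible HSP70 genes. It had log2 intensities of 4.89 and 5.89 in CLP_RAGhigh and of 3.51 and 4.22 in CLP_RAGlow, without overlap. The difference was 1.52 ± 0.46 (SE), with an unadjusted limma p of 0.017 and an adjusted p of 0.827, and leaving out 1 array at a time gave 1.02 to 2.02. With the offset of 32 it was 0.68, and the other 2 probe sets of the gene gave -0.02 and 0.02. The remaining type A genes were close between the groups. Dnaja1, which is induced by heat in many cells, had 10.16 and 9.82 against 9.72 and 9.81, so that CLP_RAGhigh replicate 2 exceeded CLP_RAGlow replicate 2 by little, and the difference of 0.23 was 0.060 without CLP_RAGhigh replicate 1. That probe set may cross-hybridise, by the suffix of its name. Another probe set of Dnaja1 had 10.67 on CLP_RAGhigh replicate 1 and 9.48 to 9.64 on the other arrays, a difference of 0.53, and the third gave 0.099. Dnajc12, a partner of aromatic amino acid hydroxylases, had 6.51 and 6.72 against 6.27 and 5.96, and Dnajc4 had 6.52 and 6.72 against 6.13 and 6.13. Both differed by about the size of their error, at 0.50 ± 0.36 and 0.49 ± 0.35. Dnajb12, a DNAJ anchored in the endoplasmic reticulum membrane, had 5.99 and 6.07 against 5.85 and 5.67.

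Type B DNAJ genes, to which Dnajb1 belongs, had differences from -0.35 to 0.27 over 13 members, with 1 gene separated above and 1 below (7.69% each, against 15.4% and 15.8% of all genes). Dnajb6, which keeps proteins from aggregating, had 9.01 and 8.28 in CLP_RAGhigh and 9.06 and 8.85 in CLP_RAGlow. Some members varied more within a group than between groups. Dnajb14, of the endoplasmic reticulum membrane, had 3.27 and 6.36 in CLP_RAGhigh and 5.34 and 5.0 in CLP_RAGlow. Dnajc25 followed the same order of arrays, with 3.13, 5.78, 4.88 and 4.40. Dnajb2, which hands clients to the proteasome, ran the other way within CLP_RAGhigh, with 7.42 and 5.55 against 7.20 and 6.32. For these 3 genes the group difference changed sign with the array left out, from -1.90 to 1.19 for Dnajb14. A second, slightly less bright probe set of Dnajb14 gave another picture. It had 6.19 and 4.87 in CLP_RAGhigh and 4.12 and 3.06 in CLP_RAGlow, a difference of 1.94 without overlap. Dnajc2, a ribosome-bound DNAJ, was level at 9.01 and 8.79 against 8.90 and 8.86, while a further probe set of the gene gave -1.49.

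**Figure D4:**
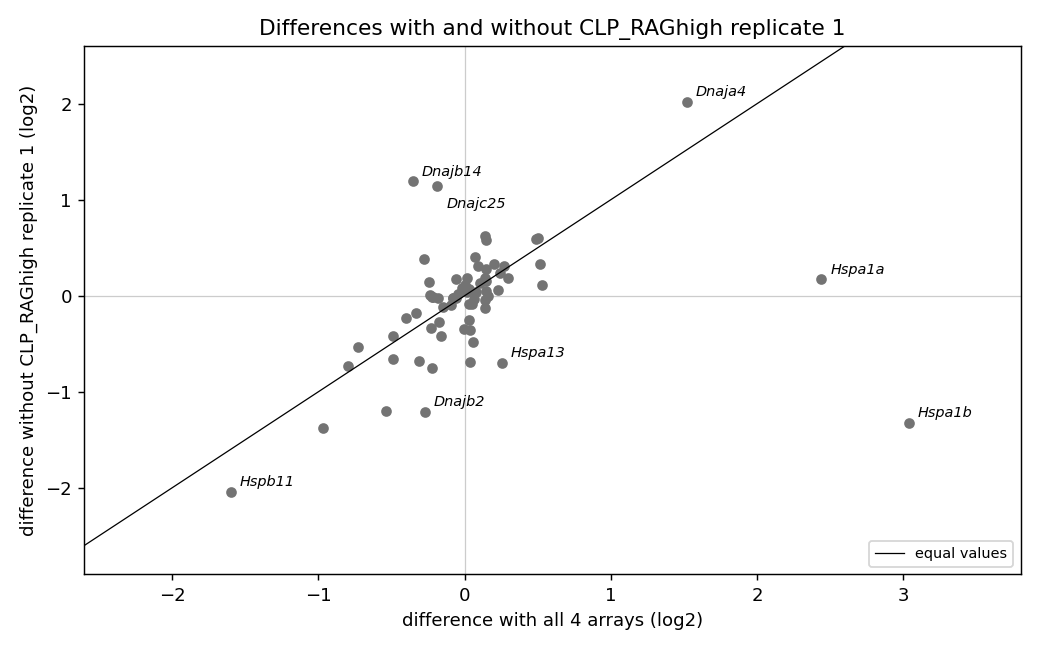
Difference CLP_RAGhigh minus CLP_RAGlow in log2 intensity with all 4 arrays (horizontal axis) and without CLP_RAGhigh replicate 1 (vertical axis), 1 point per gene for the 70 genes, with the line of equal values. Hspa1b moves from 3.04 to -1.32 and Hspa1a from 2.44 to 0.17, while Dnaja4 lies at 2.02 and Hspb11 at -2.04 without that array.

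Partners of the chaperones outside the symbol rule were read from a separate list of 57 genes of heat shock factors, BAG proteins, HSP90 cochaperones, the cytosolic chaperonin, prefoldin and mitochondrial proteases, of which 54 were measured. Hsf1, the main heat shock factor, was not analysed here. With limma, 0 passed at an adjusted p under 0.05 in either direction, and 0 in either direction at an unadjusted p under 0.05. The groups did not overlap for 8 above (14.8%) and 10 below (18.5%), against 15.4% and 15.8% of all genes, and the median difference was 0.0097. Of the 54, 14 (25.9%) were highest on CLP_RAGhigh replicate 1, against 21.2% of all genes. Fkbp5, a cochaperone of steroid receptors, had a difference of 0.59 ± 0.29 and Tomm70a, a mitochondrial import receptor that docks HSP70 and HSP90, of 0.44 ± 0.25 that was 0.26 without CLP_RAGlow replicate 2. The chaperonin subunits Cct6a and Cct2 differed by 0.32 ± 0.16 and 0.16 ± 0.14. Cct6a was at 0.12 without CLP_RAGhigh replicate 1, and Cct2 at 0.031 without CLP_RAGhigh replicate 2 and 0.066 without CLP_RAGlow replicate 1. Pfdn1, a prefoldin subunit that passes actin and tubulin to the chaperonin, had 5.68 and 3.46 in CLP_RAGhigh and 6.11 and 6.51 in CLP_RAGlow, a difference of -1.74 ± 0.74 that was -0.63 without CLP_RAGhigh replicate 2. Bag3 and Bag2, exchange factors of HSP70, differed by -0.40 ± 0.23 and -0.68 ± 0.39, and St13, which stabilises HSP70 bound to its client, by -0.34 ± 0.21. Bag3 was at -0.17 without CLP_RAGlow replicate 2 and Bag2 at -0.38 without CLP_RAGhigh replicate 2.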

How the data were processed

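The authors deposited 1 linear intensity per probe set and array, computed with RMA from Affymetrix MOE430_2 arrays after dual amplification, per the labels and the series design. RMA corrects background, normalizes between arrays and summarises probes, with software and version not given in the sources used here. Intensities ran from 2.35 to 19893, and log2 was taken here. Of 45101 rows, 64 controls were dropped, and 34945 probe sets assigned to 1 gene were used, 932 with several genes and 9160 with none were not. Genes with several kept the 1 of highest mean. All 70 members had their gene ID and symbol in RefSeq's table. Groups were compared with limma 3.58.1 in R 4.3.3 (intensity trend, two-sided, Benjamini-Hochberg over 18193 genes), with 2 residual and 3.75 prior degrees of freedom, a step tested on simulated data. Alternatives were the variance model, offset, probe sets, dim genes, normalization, replicate number and each array left out.

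The members, gene lists and tests were chosen with earlier results of these data known. Named are a fixed core of 16 genes (15 measured), the 4 brightest, the 4 with the largest spread, and 4 partner genes in each direction. Also named are up to 6 members in each direction with the smallest p among those not overlapping and not dim in both groups. Hspa1a and Dnaja4 met that rule through CLP_RAGhigh only, with CLP_RAGlow means of 1.97 and 3.87. Hspa13, Hspa1l, Stip1, Chordc1, and the further immediate early and marker genes were chosen after their values were seen. The number of arrays limits precision.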

Additional observations from a re-analysis of the deposited data

How the results depend on the processing

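Over 11 alternatives, 0 members and 0 partner genes passed an adjusted limma p under 0.05 in either direction, and the smallest adjusted p of any member was 0.496. The median difference of the members ran from -0.041 to 0.062 when 1 array was left out. Counts at an unadjusted p were small and moved. With probe sets averaged, 0 members were higher and 4 lower, and 1 partner gene was lower. Without cross-hybridising probe sets 2 members were higher, and after normalizing again by quantiles 1 partner gene was lower. The replicate numbers of the titles were tried as a block: 2 members were higher, 1 was lower and 1 partner gene was lower. Deviations of same-numbered arrays had a correlation of -0.025 over 18193 genes, so no shared shift was seen. This cannot tell whether same-numbered arrays had an animal or a sort in common. Leaving out 1 array gave 0 to 4 members higher and 0 to 5 lower, 0 to 1 partner genes higher and 1 to 3 lower, and groups without overlap for 17 to 28 members above (24.3% to 40%) and 20 to 25 below (28.6% to 35.7%), against 27% to 40.9% and 27% to 39.7% of all genes, more than with 4 arrays since 3 arrays separate more easily.

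Of 36 named genes, 23 kept their direction throughout and 13 reversed at least once. With probe sets averaged, Dnajb1 was at -0.16, Dnajb14 at 0.79, Dnajc2 at -0.46 and Hspa4 at 0.019. With the offset of 32, Dnajb14 was at 0.018 and Dnajc25 at 0.058. Without cross-hybridising probe sets, Dnajc2 was at -1.49 and Hspe1 at 0.031. Leaving out 1 array gave -1.32 to 7.40 for Hspa1b, -1.90 to 1.19 for Dnajb14, -1.51 to 1.14 for Dnajc25, -1.21 to 0.66 for Dnajb2, -0.60 to 1.08 for Hspa4l, -0.68 to 0.057 for Dnajb6, -0.087 to 0.18 for Hspa9, -0.047 to 0.17 for Dnajb1, -0.084 to 0.14 for Dnajc2, -0.033 to 0.33 for Hspd1 and -0.0052 to 0.32 for Hsp90aa1. The cause was not tested. Without dim genes, Hspa1a and Bag3 were not tested and have no value.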

Other observations

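Genes that lay far above the other arrays on CLP_RAGhigh replicate 1 were listed after the data were seen. At a gap of at least 2 log2 units to the next highest array the 2 CLP_RAGhigh arrays had 28 and 26 such genes and the 2 CLP_RAGlow arrays 14 and 10, and the members among them were Hspa1b and Hspa1a, both on CLP_RAGhigh replicate 1. After Hspa1b, Fos and Hspa1a, the next genes on that array were Prg2, a granule protein of eosinophils, at a log2 intensity of 5.74 against at most 2.33, and Jun. Fap, a fibroblast protease, had 5.56 against at most 2.51, while 0 of 6 stroma and endothelium markers were highest on that array and their summed linear intensity was 72.2 there and 77.1 to 99.6 on the others. The part of other cells in these values was not tested.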
